A study of Acipenser schrenckii with 6 samples.

Results

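The genes described here encode the folding line for tubulin and its product: the subunits of the cytosolic chaperonin (TCP-1, also called TRiC or CCT), the prefoldin subunits, the tubulin-specific chaperones, the phosducin-like proteins, and the alpha- and beta-tubulins. A gene was taken as a member when its product name held the name of 1 of these families. This gave 87 loci of the 82023 features in the table: 20 TCP-1 loci, 12 prefoldin loci, 7 tubulin-specific chaperone loci, 25 alpha-tubulin loci, 16 beta-tubulin loci and 7 phosducin-like loci. The measurement was poly(A) RNA sequencing of gut tissue from Amur sturgeon (Acipenser schrenckii) of similar genetic background raised in net cages ahead of their release into a river. One group, of 3 libraries, had eaten commercial feed for 30 days. The other, also of 3 libraries, had eaten fresh Limnodrilus, an aquatic oligochaete worm that had been grown in the water source of the fish so that it carried microbes from it. The age of the fish is not given in the labels, nor is whether a library came from 1 fish or several, and the p-values therefore describe variation among these libraries, which may be technical.

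Tubulin cannot fold alone. A new alpha- or beta-tubulin chain is picked up by prefoldin, a hexamer with long arms, and handed to the chaperonin, a double ring in which each position is held by a different subunit and which closes over its client with the use of ATP. Phosducin-like proteins bind the chaperonin and modulate it, and the tubulin-specific chaperones (cofactors A to E) then join alpha- and beta-tubulin into the dimer that builds microtubules. The chaperonin also folds actin, and in gut epithelium microtubules and actin shape the brush-bordered cells and carry their cargo.

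Levels are FPKM, fragments per kilobase of gene length scaled to the library total, as deposited by the authors. A change is a log2 fold change, Limnodrilus minus commercial feed, of FPKM + 1, tested with limma across the 23644 features whose mean over the 6 libraries reached 1 FPKM and called at an adjusted p under 0.05. This scale understates the change of low genes. Of the 87 members, 58 passed the filter, 29 lay below it, and 2 of those 29 were at 0 in every library. A locus could pass through the level of 1 diet alone, as the scarce loci LOC117403516 and LOC117399974 did. Without the filter, 27 of the 29 could be tested and 1 was called, the beta-tubulin 4b locus LOC117966875, which was higher with Limnodrilus. It held 0.054, 0 and 0 FPKM with commercial feed and 1.09, 0.397 and 0.983 FPKM with Limnodrilus. That fit called 7.19% of all features higher.

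Library depth, recovered from the steps in the FPKM values, was 9.95 to 10.5 M reads with commercial feed and 13.9 to 19.7 M with Limnodrilus. The commercial feed libraries were unlike each other, with Spearman correlations of 0.625 to 0.765 across features, against 0.866 to 0.921 among the Limnodrilus libraries. Commercial feed library 1 had 23.7% of its reads on mitochondrial features, against 2.06% to 6.42% in the other 5. Markers of enterocytes, the absorptive cells of the gut, were present in every library, but their summed level ran from 55.7 to 1925 FPKM with commercial feed and from 1695 to 8231 with Limnodrilus. Smooth muscle markers summed to 652 to 8214 FPKM with commercial feed and to 2275 to 3277 with Limnodrilus, so the marker levels of tissue layers differed between libraries. Markers of neurons had 1 of 7 tested loci called higher, erythrocytes 1 of 6 and leukocytes 0 of 13 (0 at an unadjusted p under 0.05), with 0 lower in each. Among all features tested, 14.0% were called higher and 3.64% lower, by the test described above. In bulk tissue, fewer cells of a type and less RNA per cell cannot be told apart.

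Of the 58 members tested, 26 were higher with Limnodrilus, 0 were lower and 32 did not pass. Among all features tested, 14.0% were called higher and 3.64% lower. At an unadjusted p under 0.05 the members counted 34 higher and 0 lower, and limma-voom on the recovered reads also called 0 lower. The share of all features at the unadjusted threshold is not given here, so counts at that threshold, here and below, cannot be read against a background. The median log2 fold change of the tested members was 1.17, beside 0.24 over all features. All 3 Limnodrilus libraries lay above all 3 commercial feed libraries at 36 members and below them at 0, against 28.4% and 11.5% of all features, and at 22 members the groups overlapped. The 26 called loci were 17 of TCP-1, 4 alpha-tubulins, 2 prefoldin subunits, 2 tubulin-specific chaperones and 1 beta-tubulin. All 26 kept a positive log2 fold change and 5 stayed called when any 1 library was left out. The count of members called higher was 17 without commercial feed library 2 and 7, 6 and 5 without Limnodrilus library 1, 2 and 3. In those fits 6.26%, 2.79%, 2.71% and 2.38% of all features were called higher.

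**Figure D1:**
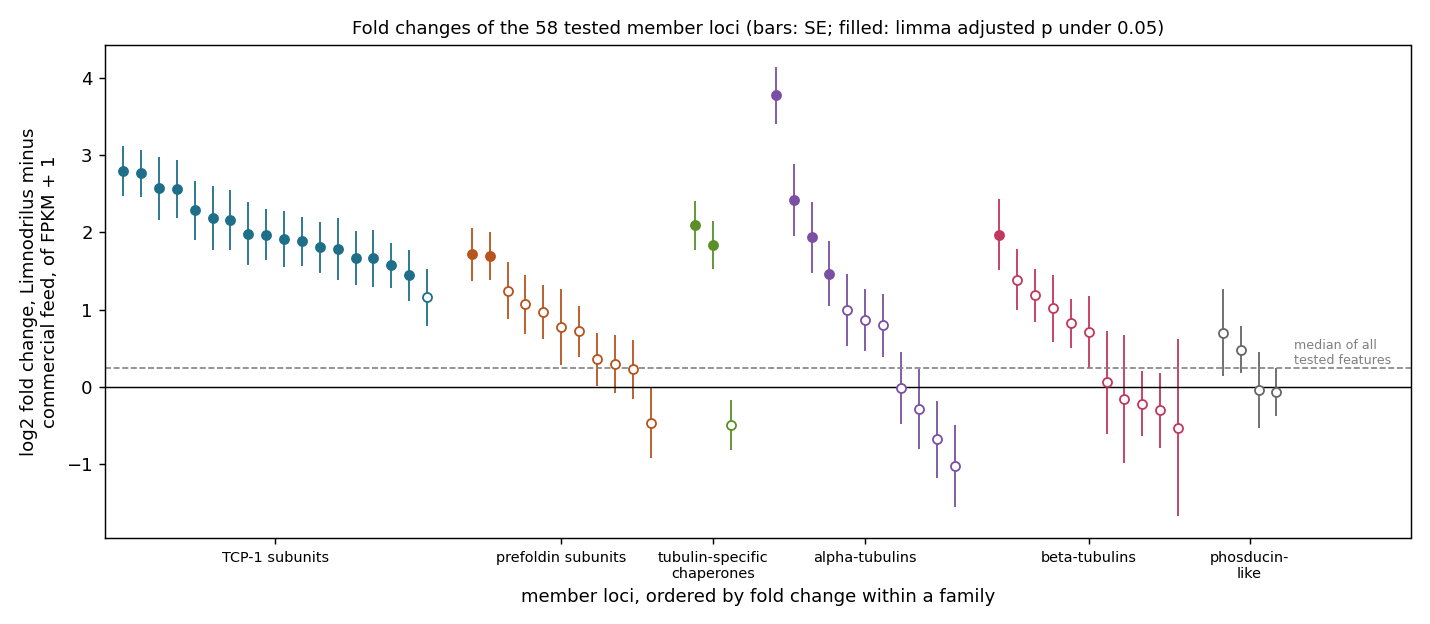
Log2 fold change of FPKM + 1, Limnodrilus minus commercial feed, for each of the 58 tested member loci, ordered within its family; bars are the standard error from limma and filled points have an adjusted p under 0.05. The 18 TCP-1 loci lie between 1.16 and 2.79, all above the dashed median of all features at 0.24, whereas the alpha-tubulins run from -1.02 to 3.77.

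The chaperonin was higher with Limnodrilus in every subunit. Summed over its 20 loci, the TCP-1 level was 367, 313 and 241 FPKM in commercial feed libraries 1 to 3 and 1017, 1358 and 1111 FPKM in Limnodrilus libraries 1 to 3. The groups were far apart, the lowest Limnodrilus library standing well above the highest commercial feed library. The fold was 3.82, from 307 ± 63.4 to 1162 ± 176 FPKM (SD, n = 3 each), and the exact permutation p was 0.1, the smallest that 3 against 3 libraries can give. Of the 18 loci tested, 17 were called higher, beside 14.0% of all features. All 18 had groups that did not overlap, where 28.4% of all features had all Limnodrilus libraries above all commercial feed libraries. The median log2 fold change of the 18 was 1.94, with a range of 1.16 to 2.79. The other 2 loci, LOC117971383 and LOC117404508, both named as theta-like, were listed at 0 in all but Limnodrilus library 3, where they stood at 0.128 and 0.033 FPKM. Leaving out Limnodrilus library 1, 2 or 3 left 5, 3 or 3 TCP-1 loci called, when 2.79%, 2.71% and 2.38% of all features were called higher. Leaving out commercial feed library 2 left 12, when 6.26% of all features were called higher. An alternative chosen after the data were seen left out both commercial feed library 1 and library 2. Its TCP-1 median log2 fold change was 2.26, beside 0.08 over all features. That fit has 1 commercial feed library, takes its spread from the Limnodrilus libraries alone and assumes that the lone library varies like them. It is given as a value only. The log2 fold change of all 18 loci stayed positive in each of these fits. Scaling by median-of-ratios, which moved the median of all features from 0.24 to -0.01, gave 13 calls and a TCP-1 median of 1.64. Under that scaling 9.29% of all features were called higher and 6.29% lower.

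The folds of the subunits were unequal. Subunit beta, which with the others forms the ring, showed the highest fold: its 2 loci together held 18.4, 14.7 and 15.5 FPKM with commercial feed and 109, 136 and 124 FPKM with Limnodrilus. That is a 7.60-fold difference, and both groups were tight. Its loci LOC131697385 and LOC117414673 had log2 fold changes of 2.76 ± 0.31 and 2.79 ± 0.32 (SE) and an adjusted p of 0.0076 each by limma. Subunit gamma was the scarcest in all 6 libraries, with 14.6, 11.2 and 5.77 FPKM against 61.0, 81.7 and 64.7 FPKM, a 7.00-fold difference. Its more abundant locus LOC117395156 had a log2 fold change of 2.56 with an SE of 0.38 (adjusted p = 0.0093 by limma).

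The middle of the order was held by zeta at 4.82-fold, epsilon at 4.22-fold, eta at 3.97-fold, alpha at 3.66-fold and theta at 3.15-fold. Each of these 5 subunits had groups that did not overlap, and the exact permutation p was 0.1 for each. Epsilon had the highest single value of any subunit, 287 FPKM in Limnodrilus library 2, where the other Limnodrilus libraries held 159 and 168 FPKM. Alpha was carried by 4 loci, all called, with Limnodrilus sums of 202, 203 and 189 FPKM against 64.1, 49.9 and 49.8 FPKM. The most abundant loci of the 5 subunits were LOC131700500 (zeta, log2 fold change 2.19), LOC117435449 (epsilon, 1.91), LOC117421435 (eta, 1.98), LOC131701654 (alpha, 1.81) and LOC117406588 (theta, 1.66), with limma adjusted p-values from 0.0148 to 0.0241.

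Delta, the most abundant subunit in the commercial feed libraries, showed the lowest fold: 88.2, 80.9 and 54.8 FPKM against 161, 216 and 174 FPKM, a 2.49-fold difference. Its locus cct4, the only member with a gene symbol, had a log2 fold change of 1.44 with an SE of 0.33 (adjusted p = 0.0269 by limma). Its other locus, LOC117402413, held 45.5, 47.9 and 28.3 FPKM against 74.9, 115 and 83.6 FPKM and did not pass (log2 fold change 1.16, SE 0.37, limma adjusted p = 0.0673), although its groups did not overlap. The subunits stood nearer to each other with Limnodrilus: the most abundant subunit exceeded the scarcest 6.06-, 7.23- and 9.49-fold in the commercial feed libraries and 3.31-, 3.52- and 2.93-fold in the Limnodrilus libraries. Whether the folds of single subunits differ from each other was not tested.

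Each subunit of the chaperonin had at least 2 expressed loci, and the fold changes of the copies lay close together. Over 8 pairs, the most abundant copies of each subunit, their log2 fold changes differed by 0.01 to 0.37, with a median of 0.11. The epsilon pair differed most: the ratio of LOC117435449 to LOC117400724 was 2.11, 2.83 and 2.49 with commercial feed and 1.79, 1.71 and 2.02 with Limnodrilus (exact permutation p = 0.1, unadjusted over the 8 pairs). For the other 7 pairs the ratios overlapped between diets. Reads from near-identical copies could be shared or split by the counting, so the subunit sums are firmer than the values of single copies.

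**Figure D2:**
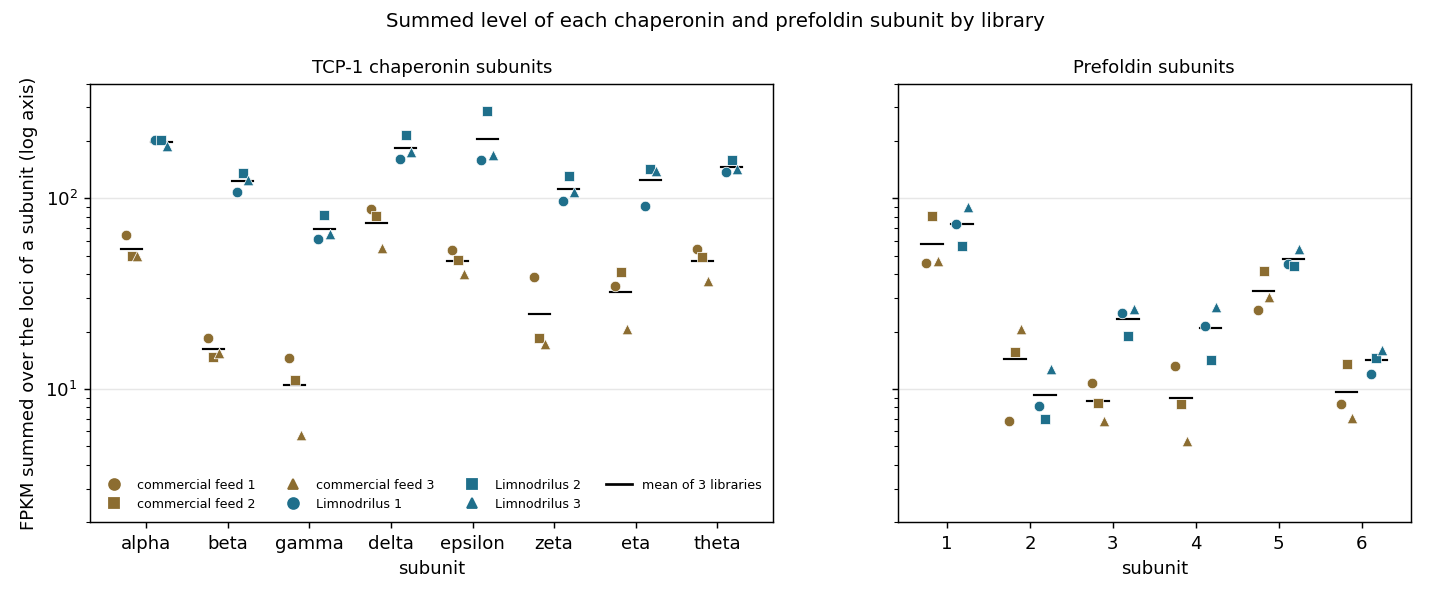
FPKM summed over the loci of each TCP-1 subunit (left) and each prefoldin subunit (right), on a log axis, with 1 point per library and a bar for the mean of 3. All 8 TCP-1 subunits separate the diets, from 2.49-fold for delta to 7.60-fold for beta, while prefoldin subunits 1, 2 and 6 overlap.

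The TCP-1 level can be set beside the cell type markers in the same libraries. The 11 tested enterocyte markers all had positive log2 fold changes, with a median of 2.56. Of them 3 were called higher and 0 lower (10 higher and 0 lower at an unadjusted p under 0.05), and 7 had all Limnodrilus libraries above all commercial feed libraries. Among all features 14.0% were called higher, 3.64% were called lower and 28.4% had all Limnodrilus libraries above. Enterocyte markers summed to 55.7, 230 and 1925 FPKM in commercial feed libraries 1 to 3 and 1695, 8231 and 3350 FPKM in Limnodrilus libraries 1 to 3. The TCP-1 sums in the same order were 367, 313 and 241 FPKM and 1017, 1358 and 1111 FPKM. Markers of proliferating cells summed to 9.88 to 23.7 FPKM with commercial feed and 19.1 to 48.7 with Limnodrilus, overlapping, with 0 of 7 called (2 higher at an unadjusted p under 0.05). Smooth muscle markers had 0 of 16 called, with 1 higher at an unadjusted p under 0.05, and their sums overlapped. The part of cell mix in the TCP-1 difference was not tested.

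**Figure D3:**
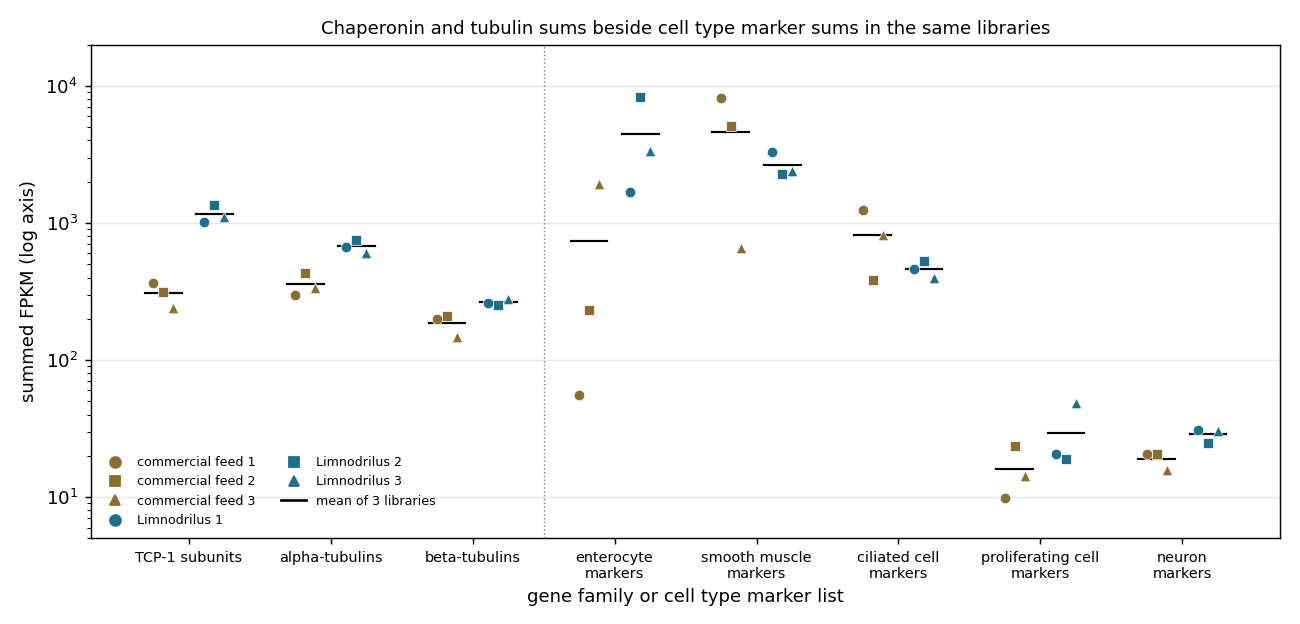
Summed FPKM of TCP-1, alpha-tubulin and beta-tubulin loci and of 5 marker lists in each library, on a log axis; bars are means of 3 libraries. Enterocyte markers run from 55.7 to 1925 FPKM with commercial feed and from 1695 to 8231 FPKM with Limnodrilus. TCP-1 sums run from 241 to 367 FPKM with commercial feed and from 1017 to 1358 FPKM with Limnodrilus.

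Prefoldin, which delivers the chains to the chaperonin, had 2 of 11 tested loci called higher, or 18.2%, beside 14.0% of all features. Its 12 loci summed to 111, 169 and 117 FPKM with commercial feed and 185, 155 and 227 FPKM with Limnodrilus, and the groups overlapped (1.44-fold, exact permutation p = 0.2). That overlap depended on the scaling and on 1 locus. The log2 difference of the sums, 0.53, became 0.65 with TPM and 0.69 without the most abundant locus (exact permutation p = 0.1 each). Under median-of-ratios and quantile scaling it was 0.21 and 0.27 (exact permutation p = 0.5 each). Among the 11, 0 were called lower and 9 did not pass (5 higher and 0 lower at an unadjusted p under 0.05), with a median log2 fold change of 0.78. The TCP-1 sum was 3.31, 1.85 and 2.06 times the prefoldin sum with commercial feed and 5.49, 8.76 and 4.89 times with Limnodrilus. Those ratios did not overlap (exact permutation p = 0.1).

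The 2 prefoldin calls were the less abundant copies of subunits 3 and 4. LOC117412453, subunit 3, held 3.33, 2.16 and 1.97 FPKM against 8.86, 9.83 and 11.9 FPKM (log2 fold change 1.70, SE 0.31, and adjusted p = 0.0145 by limma). LOC117429645, subunit 4, held 2.75, 1.19 and 2.48 FPKM against 8.615, 7.34 and 11.6 FPKM (log2 fold change 1.71, SE 0.34, and adjusted p = 0.0185 by limma). In both, every Limnodrilus library exceeded every commercial feed library. The first call was lost without any 1 of the Limnodrilus libraries (limma adjusted p up to 0.0715), and the second also without commercial feed library 2 (up to 0.0833). Their more abundant copies, LOC117430460 and LOC117424514, had log2 fold changes of 0.97 and 0.78 and did not pass, with limma adjusted p-values of 0.0903 and 0.303.

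The fold changes of the prefoldin copies lay further apart, by 0.36 to 0.95 on the log2 scale over 5 pairs. In 4 of 5 pairs the less abundant copy had the higher log2 fold change. For subunit 1, the most abundant, LOC117431378 exceeded LOC117413421 by 7.92, 7.23 and 10.2 times with commercial feed and 4.91, 3.74 and 4.24 times with Limnodrilus. For subunit 3 the ratio of the copies was 2.23, 2.89 and 2.45 against 1.83, 0.92 and 1.21. Both ratios separated the diets (exact permutation p = 0.1, unadjusted over 5 pairs), and those of subunits 4, 5 and 6 overlapped.

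Other prefoldin subunits did not pass. LOC117431378, subunit 1, stood at 40.6, 71.2 and 42.6 FPKM against 61.0, 44.6 and 73.1 FPKM, with a log2 fold change of 0.22 that turned to -0.08 under median-of-ratios scaling. LOC117400994, subunit 5, had means of 16.1 and 26.7 FPKM and did not pass (limma adjusted p = 0.168), and LOC131709000, subunit 6, had a log2 fold change of 0.29. The only prefoldin locus with a negative value was LOC117967728, subunit 2, with 6.20, 15.7 and 18.5 FPKM against 7.83, 6.73 and 12.02 FPKM (log2 fold change -0.47, limma adjusted p = 0.505).

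Among the tubulin-specific chaperones, 1 locus of cofactor A and 1 of cofactor C were called higher with Limnodrilus. LOC117403516, cofactor A, which holds beta-tubulin, stood at 0.392, 0.306 and 0.0966 FPKM against 3.21, 5.77 and 4.40 FPKM, and had a log2 fold change of 2.09 with an SE of 0.32 (adjusted p = 0.0100 by limma). The commercial feed values rest on few reads, since the lowest value in this family came from 1 read. LOC117403019, cofactor C, which acts late in dimer assembly and prompts tubulin to hydrolyse GTP, stood at 1.93, 0.942 and 1.59 FPKM against 7.26, 9.68 and 6.67 FPKM (log2 fold change 1.84, SE 0.31, and adjusted p = 0.0125 by limma). Neither gene had overlapping groups. LOC117403516 stayed called when any 1 library was left out, but it passed the filter through its Limnodrilus level alone. Those fits kept that filter, so they are no further support for its call. LOC117403019 was lost without any 1 of the Limnodrilus libraries (limma adjusted p up to 0.0588). The other cofactor A locus, LOC117974132, lay below 1 FPKM and overlapped, with 0.194, 0 and 0.286 FPKM against 0.144, 1.12 and 1.76 FPKM.

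The third tested locus of this family, LOC131708067, a cofactor E-like protein, had means of 2.46 and 1.44 FPKM and did not pass (log2 fold change -0.49, limma adjusted p = 0.326). The other 4 loci, among them the cofactor E locus LOC117403134, lay below 1 FPKM. The cofactors B, D and E that carry a different product name fell outside the rule, in a list chosen after product names were seen. Of them, the cofactor B locus LOC117416151 rose from 7.74 to 30.8 FPKM (log2 fold change 1.96, limma adjusted p = 0.0214) and tbcd, cofactor D, from 2.17 to 5.77 FPKM (1.11, limma adjusted p = 0.0406). The second cofactor B locus, LOC117394778, and tbce, cofactor E, had log2 fold changes of 1.34 and 1.06 and did not pass. Neither did uxt, a prefoldin-like gene in the same list, at 0.26. That list had 2 of 5 loci called higher and 0 lower, beside 14.0% and 3.64% of all features. ARL2, the small GTPase that works with cofactor D, rose at LOC117398524 from 1.17 to 6.63 FPKM (log2 fold change 1.84, limma adjusted p = 0.0119). It belongs to a list of tubulin regulators, of which 3 of 27 were called higher, or 11.1%, and 1 lower.

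The alpha-tubulins differed between diets in composition as well as in total. Their 25 loci summed to 296, 434 and 338 FPKM with commercial feed and 671, 747 and 602 FPKM with Limnodrilus, with no overlap (1.91-fold, exact permutation p = 0.1). Of the 11 loci tested, 4 were called higher, or 36.4%, and 0 lower, beside 14.0% and 3.64% of all features. The other 7 did not pass (at an unadjusted p under 0.05 the 11 counted 4 higher and 0 lower). The TCP-1 sum was 1.24, 0.720 and 0.712 times the alpha-tubulin sum with commercial feed and 1.51, 1.82 and 1.84 times with Limnodrilus, again without overlap (exact permutation p = 0.1).

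LOC117407556, named only as an alpha chain, had the highest log2 fold change of FPKM + 1 of all 58 tested members. As a ratio of mean FPKM, its 16.2-fold difference was close to the 16.8-fold of the scarce cofactor A locus LOC117403516. It held 4.32, 6.46 and 6.54 FPKM with commercial feed and 91.9, 123 and 65.3 FPKM with Limnodrilus, a log2 fold change of 3.77 with an SE of 0.37 (adjusted p = 0.0076 by limma). Its share of all alpha-tubulin FPKM went from 1.46%, 1.49% and 1.94% to 13.7%, 16.5% and 10.8%. It stayed called when any 1 library was left out. Without it, the alpha-tubulin sum still separated the diets, at 292, 428 and 331 FPKM against 579, 624 and 537 FPKM.

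LOC117416255 held 23.0, 12.3 and 8.42 FPKM against 95.4, 49.2 and 95.1 FPKM, and had a log2 fold change of 2.42 with an SE of 0.47 (adjusted p = 0.0165 by limma). LOC117962580, of the alpha-1C type, held 16.9, 44.4 and 36.7 FPKM against 105.4, 167 and 95.3 FPKM, and had a log2 fold change of 1.94 with an SE of 0.46 (adjusted p = 0.0283 by limma). Both had groups that did not overlap. The first call was lost without commercial feed library 2 or Limnodrilus library 1 or 3 (limma adjusted p up to 0.0728), and the second without any 1 of the Limnodrilus libraries (up to 0.102). LOC117964479, of the alpha-8 type and the most abundant alpha-tubulin, held 34.4, 76.9 and 69.7 FPKM against 162, 195 and 127 FPKM. Its log2 fold change was 1.46 ± 0.42 (SE) and its limma adjusted p, 0.049997, lay just under the threshold. That call was lost without any 1 library other than commercial feed library 3, with adjusted p-values up to 0.154. Of 13 other settings 4 called it, and it was lost, among others, with a pseudocount of 0.1, no filter, TPM, median-of-ratios scaling and limma-voom (limma adjusted p from 0.0507 to 0.0873).

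The most abundant alpha-tubulin of the commercial feed libraries had its higher mean with that diet. LOC117408020, again named only as an alpha chain, held 74.5, 197 and 89.0 FPKM with commercial feed and 67.5, 29.3 and 76.8 FPKM with Limnodrilus. The groups overlapped and it did not pass (log2 fold change -1.02, SE 0.53, and adjusted p = 0.219 by limma). Its share of alpha-tubulin FPKM was 25.1%, 45.3% and 26.3% with commercial feed and 10.05%, 3.92% and 12.7% with Limnodrilus. The ratio of LOC117407556 to LOC117408020 was 0.0580, 0.0328 and 0.0735 with commercial feed and 1.36, 4.20 and 0.850 with Limnodrilus, without overlap (exact permutation p = 0.1). These loci had the highest and the lowest log2 fold change of the tested members. The separation of their ratio therefore follows largely from the choice of the pair and is no further evidence.

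These loci lie on the same stretch of sequence. The table places 8 alpha-tubulin loci within 155 kb of the sequence NC_081198.1, from 27484890 to 27640025, in an assembly that is not given in the sources used here. In order, the 7 tested ones were LOC117408357 (alpha-1A, log2 fold change 0.99), LOC117402664 (alpha-1A, -0.02), LOC117402673 (0.86), LOC117408020 (-1.02), LOC117408004 (alpha-1A, 0.79), LOC117407588 (alpha-1A, -0.68) and LOC117407556 (3.77), of which the last alone passed. Some loci that follow each other in this order thus had values of opposite sign, but as only LOC117407556 passed, the signs of the others are not established. Reads from similar neighbouring loci could also be shared or split by the counting. With commercial feed the cluster held 74.4%, 67.8% and 65.4% of alpha-tubulin FPKM, against 45.4%, 44.5% and 46.5% with Limnodrilus (exact permutation p = 0.1). The called loci LOC117964479, LOC117962580 and LOC117416255 lie outside the cluster. Its share therefore restates their calls in part and is no further evidence. In FPKM the cluster summed to 220, 295 and 221 against 305, 333 and 280, which overlapped (exact permutation p = 0.2), whereas the alpha-tubulins elsewhere summed to 75.9, 140 and 117 against 366, 414 and 322. LOC117408004, the fourth most abundant alpha-tubulin, held 53.2, 28.3 and 41.5 FPKM against 60.8, 103 and 54.1 FPKM and did not pass (limma adjusted p = 0.211).

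**Figure D4:**
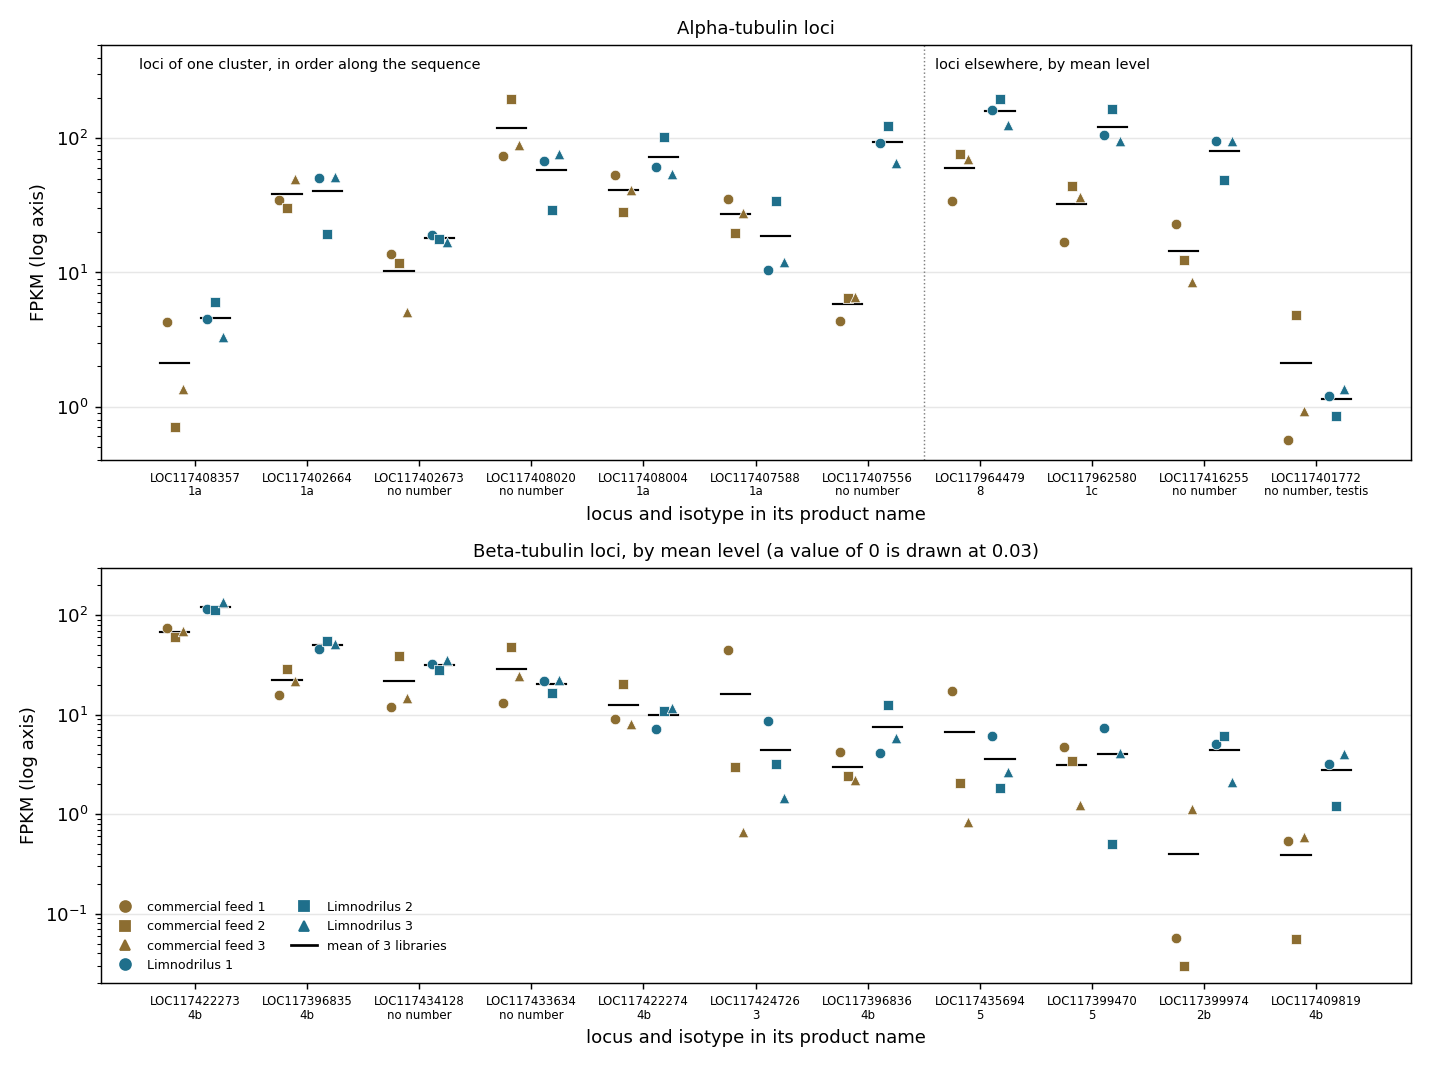
FPKM of each tested alpha-tubulin locus (top) and beta-tubulin locus (bottom) in the 6 libraries, on log axes, with bars for means of 3. The alpha-tubulins left of the dotted line lie within 155 kb of 1 sequence. LOC117407556 rises from 4.32 to 6.54 FPKM with commercial feed to 65.3 to 123 FPKM with Limnodrilus. LOC117408020 and LOC117407588, of the same stretch, overlap between diets.

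The beta-tubulins, the partner chains, had 1 called locus. Their 16 loci summed to 199, 208 and 148 FPKM with commercial feed and 260, 250 and 280 FPKM with Limnodrilus, without overlap (1.44-fold, exact permutation p = 0.1). That separation depended on the scaling and on 1 locus: the log2 difference of the sums, 0.53, became 0.21 under median-of-ratios scaling (exact permutation p = 0.9), 0.23 under quantile scaling (p = 0.7), 0.44 without rRNA, tRNA and mitochondrial features (p = 0.2) and 0.33 without the most abundant locus (p = 0.4). Of 11 tested, 1 was called higher, 0 lower, and 10 did not pass (5 higher and 0 lower at an unadjusted p under 0.05), a share of calls near that of all features. The ratio of alpha- to beta-tubulin sums was 1.49, 2.09 and 2.29 against 2.58, 2.99 and 2.15, which overlapped (exact permutation p = 0.2).

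The called locus was LOC117399974, of the beta-2B type, with 0.057, 0 and 1.13 FPKM against 5.08, 6.18 and 2.09 FPKM (log2 fold change 1.97, SE 0.46, and adjusted p = 0.0274 by limma). It is a scarce gene, and its call was lost without any 1 library other than commercial feed library 3 (limma adjusted p up to 0.0998). Of 13 other settings 8 called it. The most abundant beta-tubulin, LOC117422273 of the beta-4B type, held 75.2, 60.1 and 70.3 FPKM against 116, 113 and 137 FPKM. Its groups did not overlap, yet it did not pass (log2 fold change 0.82, SE 0.32, and adjusted p = 0.112 by limma). LOC117396835, also beta-4B, came near the threshold with 15.97, 28.9 and 22.0 FPKM against 45.4, 55.2 and 51.6 FPKM (log2 fold change 1.19, SE 0.34, and adjusted p = 0.0516 by limma).

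The next most abundant loci, LOC117434128 and LOC117433634, named only as beta chains, had log2 fold changes of 0.71 and -0.31 and overlapped. Commercial feed library 2 was highest for both, at 38.7 and 47.7 FPKM, and without it their commercial feed means went from 21.8 to 13.4 and from 28.5 to 18.9 FPKM. Beta-3, known as a marker of neurons, stood out in 1 library: LOC117424726 held 44.4, 2.96 and 0.663 FPKM with commercial feed and 8.68, 3.21 and 1.44 FPKM with Limnodrilus. LOC117435694, of the beta-5 type, had the same library highest, with 17.4, 2.09 and 0.838 FPKM against 6.18, 1.84 and 2.66 FPKM. The neuron markers summed to 20.6, 20.6 and 15.8 FPKM with commercial feed and 30.8, 24.7 and 30.5 FPKM with Limnodrilus, without overlap. The median log2 fold change of the 7 tested neuron markers was -0.16. The smooth muscle markers of commercial feed library 1, 8214 FPKM, were the highest of the 6. The link between those markers and beta-3 was not tested.

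The phosducin-like proteins, which bind the chaperonin, showed no call among 4 loci tested, and 0 at an unadjusted p under 0.05 in either direction. Of all features 14.0% were called higher and 3.64% lower, and with only 4 loci 0 calls cannot be told apart from those shares. LOC117405919 and LOC117406800, both of the phosducin-like 3 type, made up most of the family, and with commercial feed they held 56.9, 31.3 and 10.8 FPKM for the first and 46.0, 29.3 and 13.0 FPKM for the second, library 1 being highest and library 3 lowest in both. In the Limnodrilus libraries they held 44.6, 43.3 and 45.7 FPKM and 33.2, 19.4 and 25.4 FPKM. The family sum was 114, 77.8 and 35.0 FPKM against 92.7, 79.6 and 85.9 FPKM, so the groups overlapped (exact permutation p = 0.7). LOC117422617, the third most abundant, had a log2 fold change of -0.07.

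Other genes of the pathway, in lists matched by product name, varied in direction. The mitochondrial chaperonin, a relative of TCP-1 that folds proteins inside mitochondria, rose at all 3 loci tested: HSP60 at LOC117426226 from 1.72 to 66.0 FPKM (log2 fold change 4.61) and at LOC117413826 from 3.82 to 71.5 FPKM (3.92), and its lid HSP10 at LOC117413853 from 14.5 to 110 FPKM (2.83), with limma adjusted p-values of 0.0026, 0.0043 and 0.0076. In the list of unconventional prefoldin and R2TP partners, 3 of 10 rose and 2 fell, beside 14.0% and 3.64% of all features. The rising ones were the ATPases ruvbl2 (2.19) and ruvB-like 1 at LOC117964080 (1.22) and the PIH1D1-like adaptor LOC117970676 (2.01). The falling ones were both URI-like loci, LOC117424269 from 36.2 to 12.7 FPKM (log2 fold change -1.41, limma adjusted p = 0.0402) and LOC117425594 from 31.1 to 9.56 FPKM (-1.54, limma adjusted p = 0.0323); URI is the scaffold of the unconventional prefoldin complex.

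Among textbook clients of the chaperonin 4 of 19 rose, or 21.1% beside 14.0% of all features, and 0 fell (7 and 0 at an unadjusted p under 0.05). The rising ones included the cytoplasmic actin LOC117424565, with 402, 187 and 121 FPKM against 693, 862 and 675 FPKM (log2 fold change 1.82, limma adjusted p = 0.0415). Of 27 tubulin regulators 3 rose and 1 fell, and of 45 microtubule-associated proteins 4 rose and 1 fell. Those that rose in the second list included the plus-end binding EB1-like loci LOC117431820 and LOC131702041 (log2 fold changes 1.28 and 1.75). Of 150 dynein, dynactin and kinesin loci, which move cargo on microtubules, 13 rose and 1 fell. These shares of calls, 11.1%, 8.89% and 8.67% higher, were below the 14.0% of all features.

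The other tubulins and the genes that seed microtubules had 0 of 15 higher and 2 lower (1 and 7 at an unadjusted p under 0.05), beside 14.0% higher and 3.64% lower among all features. Both falling loci encode gamma-tubulin complex component 4, part of the ring that starts a microtubule: LOC117428467 held 9.14, 12.05 and 9.31 FPKM against 2.21, 1.19 and 2.46 FPKM (log2 fold change -1.94, limma adjusted p = 0.0118), and LOC117429685 had a log2 fold change of -1.92. Neither locus had overlapping groups. Markers of ciliated cells, which are rich in tubulin, summed to 383 to 1251 FPKM with commercial feed and 395 to 524 with Limnodrilus and overlapped. Of them 5 of 94 were higher, or 5.32%, below the share of all features, and 4 were lower.

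Set beside 2 other folding and turnover families, TCP-1 had the higher share of calls. Of 71 proteasome loci 38 rose and 0 fell (48 and 0 at an unadjusted p under 0.05), with a median log2 fold change of 1.26. Of 89 loci matched by product name as heat shock proteins or DnaJ homologs, 33 rose and 0 fell (51 and 1), with a median of 1.09. The TCP-1 figures were 17 of 18 and 1.94, the highest share of calls among the member families. Over all tested members 44.8% were called higher, with a median of 1.17, beside 53.5% of the proteasome list and 37.1% of the heat shock list. All features tested had 14.0% called higher, 3.64% called lower and a median of 0.24. The mitochondrial chaperonin had 3 of 3 loci called, with a median of 3.92. The difference between these families was not tested.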

How the data were processed

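FPKM values of gut RNA for 82023 features in 6 libraries were deposited by the authors in 1 table. The submitters' processing notes name cutadapt 1.9 and mm10, the latter a mouse genome whose sequence names are not those of the table. Which assembly, aligner, counting tool and strand setting were used is not given in the sources used here. Per the labels' protocols, poly(A) RNA was selected and the second strand digested.

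Members were matched on product names. The members, lists and tests were chosen with earlier results of these data known. The genes named are the most abundant locus of each subunit or cofactor, the 4 most abundant alpha- and beta-tubulins, the 3 most abundant phosducin-like loci and up to 3 called members of smallest p in each family (34 loci, 17 called higher); second copies are given beside them, and loci of other lists, with LOC117966875, LOC117408357, LOC117402664, LOC117402673, LOC117407588, LOC117424726 and LOC117435694, were chosen after their values were seen.

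Features whose mean reached 1 FPKM were compared on log2(FPKM + 1) with limma 3.58.1 (limma-trend, 2-sided) in R 4.3.3, with Benjamini-Hochberg adjustment over all 23644 and a threshold of 0.05. Family sums and ratios were compared by 2-sided exact permutation of libraries, on the log2 scale. FPKM times length gave whole multiples of 1 step, within 0.1, for 100% of values up to about 20 reads and 89.7% to 95.3% of all, from which depth was recovered. Over tested members, reads per TCP-1 locus ran from 49 to 936 with commercial feed and 604 to 6837 with Limnodrilus. PCR copies are not independent molecules. The fit was tested on simulated data drawn with the same spread in both diets. That test does not cover an unequal spread between the diets. Same-numbered libraries of the 2 diets did not deviate together throughout (r = 0.19, -0.07 and 0.07), so the numbers were not used as pairs. Alternatives were other pseudocounts, filters, scalings, variance models, limma-voom on recovered reads, a length correction and leaving out libraries.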

Additional observations from a re-analysis of the deposited data

How the results depend on the processing

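Leaving out 1 library gave 5 to 28 members called higher and 3 to 17 TCP-1 loci, beside 26 and 17 with all 6. The low counts came from the fits with only 2 Limnodrilus libraries. Over the fits without 1 library, the share of all features called higher ran from 2.38% to 20.7%. With 0.1 as pseudocount, other filters, scalings, variance models, limma-voom or a length correction, both counts stayed within 1.5 times, and no member was called lower in any fit. The replicate block gave 20 members and 13 TCP-1 loci, with 8.91% of all features called higher. The replicate numbers share no stated animal or batch. The sums of TCP-1, prefoldin, tubulin-specific chaperone, alpha- and beta-tubulin loci kept their sign in every scaling and when any 1 library or the most abundant locus was left out. The diets overlapped in the beta-tubulin sum under median-of-ratios or quantile scaling, without rRNA, tRNA and mitochondrial features, and without its most abundant locus. The log2 difference of the phosducin-like sum, 0.34, ran from -0.13 (without commercial feed library 3) to 0.72. Signs turned only at genes that were not called: LOC117431378 gave -0.0833 under median-of-ratios and -0.0423 under quantile scaling, LOC117433634 -0.75 to 0.15 when 1 library was left out, LOC117406800 0.0854 with TPM, -0.51 to 0.36 when 1 library was left out and 0.91 without commercial feed libraries 1 and 2 (which leaves 1 library of that diet), and LOC117422617 0.0448 with TPM, -0.16 to 0.11 when 1 library was left out and 0.11 without the same 2; the cause was not tested. Over the named genes, 541 alternative values kept direction and side of the threshold, 62 lost a call, 9 gained one and 12 turned sign. With 3 libraries per diet, an exact permutation test cannot go below 0.1, and genes near 1 FPKM rest on few reads.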
